A study of Mus musculus with 6 samples.

Results

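The 10 genes described here encode the fragile X family of RNA-binding proteins (Fxr1, Fxr2, Fmr1) and proteins known to bind them (Cyfip1, Cyfip2, Nufip1, Nufip2, Caprin1, G3bp1, G3bp2). They were chosen by symbol, and each of the 10 had 1 row among the 23306 rows of the deposited count table. RNA on haemagglutinin-tagged ribosomes was sequenced from frontal cortex of male C57BL6 mice, in which Cre recombinase under parvalbumin control switches on the tagged ribosomal protein RPL22 (PV-Cre::RiboTag). One group carried a conditional knockout of Fxr1 with PV-Cre and the other was wild type at Fxr1. As far as the labels say, mice of both groups were made by crossing PV-Cre with mice carrying 1 RPL22HA allele and 1 wild type allele. Deletion of Fxr1 is limited to cells that express Cre, and the age of the mice is not given in the sources used here. The series has 3 samples per genotype, and 4 libraries could be tied to a single sample: replicates 2 and 3 of wild type, with 1 and 3 of knockout. The labels do not say that these came from separate animals, so every p-value measures the spread between libraries, which may be technical.

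Fragile X proteins bind messenger RNAs in neurons, travel with them in granules and generally restrain their translation at synapses. Loss of FMRP, the product of Fmr1, causes fragile X syndrome, and its paralogs FXR1P and FXR2P form dimers with it and with each other. Among the partners, CYFIP proteins link FMRP to translation initiation and also sit in the WAVE complex, which drives actin branching. NUFIP proteins were named for binding FMRP, and caprin-1 and the G3BP proteins build neuronal RNA granules and stress granules.

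The coding sequences of the paralogs were compared first, because reads that fit 2 genes can be counted for the wrong one. The coding sequence used was that of the longest coding transcript in GENCODE M21, an annotation of mm10. Over aligned bases, Fxr1 was 68.3% identical to Fxr2 and 65.1% identical to Fmr1, and Fxr2 was 61.9% identical to Fmr1. Cyfip1 and Cyfip2 were 77.7% identical and G3bp1 and G3bp2 69.1%. The windows below, printed 5′ to 3′, hold the longest run of identical bases in each pair, in capitals, with up to 20 bases on either side, to show how short the shared runs are.
Fxr1 (with Fxr2): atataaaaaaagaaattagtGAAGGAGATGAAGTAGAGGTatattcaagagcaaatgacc
Fxr2 (with Fxr1): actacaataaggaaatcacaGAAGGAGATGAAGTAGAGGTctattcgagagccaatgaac
Fxr1 (with Fmr1): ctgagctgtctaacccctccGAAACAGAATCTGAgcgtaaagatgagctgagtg
Fmr1 (with Fxr1): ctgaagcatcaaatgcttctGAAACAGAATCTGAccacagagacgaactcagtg
Cyfip1 (with Cyfip2): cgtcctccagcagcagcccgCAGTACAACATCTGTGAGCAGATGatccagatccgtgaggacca
Cyfip2 (with Cyfip1): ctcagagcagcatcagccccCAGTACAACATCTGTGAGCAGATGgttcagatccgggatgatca
G3bp1 (with G3bp2): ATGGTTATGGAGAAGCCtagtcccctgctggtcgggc
G3bp2 (with G3bp1): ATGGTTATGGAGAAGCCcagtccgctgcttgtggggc

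The longest shared run was 20 bases for Fxr1 and Fxr2, 14 for Fxr1 and Fmr1, 14 for Fxr2 and Fmr1, 24 for Cyfip1 and Cyfip2 and 17, from the start codon on, for G3bp1 and G3bp2. No pair of paralogs therefore shared a stretch of 50 bases in these coding sequences. Windows of 50 bases of these coding sequences were then looked up, on both strands, in all annotated transcripts of other genes. Untranslated exon parts, whose reads can also be counted, were not searched. For Fmr1, as an example, coding bases were 1893 of 8966 exon bases. For Fxr2, Fmr1, Cyfip2, Nufip1, Nufip2 and Caprin1, 0 windows occurred elsewhere. For Fxr1, 6.0% did, in the neighbouring gene Dnajc19 on the opposite strand and in the processed pseudogene Gm17795. For G3bp1 the share was 42.3%, with 4 processed pseudogenes and 1 noncoding RNA among the genes that hold them, so its count is uncertain. For G3bp2 it was 20.8%, all in the noncoding RNA Gm26582, which lies on the opposite strand. For Cyfip1 it was 2.67%, and a further gene, Nipa2, overlapped 11.0% of its exon bases on the opposite strand. No source used here gives the strand setting of the counting, so reads of such neighbours cannot be told apart from those of the genes named.

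Library totals lay between 9696126 and 10301280 counts. Among the markers of parvalbumin neurons, Pvalb lay between 241 and 264 CPM (counts scaled to the library total). Gad1, a GABA-synthesising enzyme gene, was the highest of the 12, between 4048 and 4354 CPM, and Pthlh the lowest, between 9.74 and 13.0 CPM. Summed over 12 of 12 markers, the list reached 12055 to 12136 CPM in wild type and 11648 to 11656 CPM in knockout. It includes Gad1, Gad2 and Slc32a1, genes of GABA neurons in general, so the sum does not measure parvalbumin neurons alone. None of the 12 passed the edgeR test. Pvalb, Gad1, Gad2, Erbb4 and Ppargc1a were lower in both knockout libraries than in both wild type libraries, and Lhx6 was slightly higher (174 and 174 against 171 and 173 CPM). The genotypes overlapped for Slc32a1, Kcnc1, Kcnc2, Tac1, Syt2 and Pthlh. With so few libraries such separation is common: the genotypes did not overlap for 30.2% of all 12449 genes tested, in either direction. The 7 excitatory neuron markers summed to 1026 to 1124 CPM in wild type and 1076 to 1120 CPM in knockout, so transcripts of cells outside the targeted type were present in both. Among them Camk2a lay at 663 to 723 CPM, and the astrocyte marker Slc1a2 lay at 445 to 522 CPM, both above Pvalb. The other markers of these cell types lay below Pvalb. Astrocyte markers, 6 of 6, gave 631 to 663 and 609 to 710 CPM, and oligodendrocyte markers, 8 of 8, gave 269 to 297 and 276 to 383 CPM. Markers of Vip and Lamp5 interneurons, 7 of 7, summed to 203 to 205 CPM in wild type and 176 to 201 CPM in knockout. This sum was lower in both knockout libraries, but knockout replicate 3 (200.5 CPM) lay just below wild type replicate 2 (202.6 CPM). Most of it was Reln, at 125 to 146 CPM. Reln and Htr3a (0 to 0.29 CPM) were lower in both knockout libraries, while Vip, Calb2, Cck and Ndnf overlapped. Lamp5 itself went the other way, with a range of 10.5 to 11.7 CPM for wild type and 12.6 to 13.6 CPM for knockout. The genotypes overlapped in the summed markers of somatostatin neurons, microglia, endothelial and mural cells and striatal neurons. Knockout replicate 3 held the highest sum for astrocytes (710 CPM), oligodendrocytes (383 CPM), somatostatin neurons, endothelial and mural cells and striatal neurons. The parvalbumin, Vip and Lamp5, excitatory and microglia sums were highest in a wild type library. No listed marker was at 0 in every library. The ribosomal RNA precursor Rn45s stood apart in knockout replicate 1, at 7110 CPM against 2827 to 3152 CPM in the other libraries. In bulk RNA of this kind, fewer cells of a type and less RNA per cell cannot be told apart.

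Fxr1 itself, the gene that was deleted, fell in knockout. It lies on mm10 chromosome 3 from 34019943 to 34070322. Its level was 98.4 CPM in wild type replicate 2 and 101 CPM in wild type replicate 3, against 17.8 CPM in knockout replicate 1 and 18.7 CPM in knockout replicate 3. Both knockout libraries were far below both wild type libraries, and the 2 libraries of a genotype were close to each other. These levels rest on 954, 1036, 181 and 192 counts, and the exact 95% binomial intervals of the knockout libraries were 15.3 to 20.6 and 16.1 to 21.5 CPM, for counting error only. The fold was 0.183 of wild type, with a 95% interval of 0.159 to 0.212 (log2 fold change −2.45, SE 0.10, n = 2 libraries per genotype). Its Benjamini-Hochberg adjusted p was 1.77e-15 by the quasi-likelihood test of edgeR. An exact two-sided permutation test over 2 against 2 libraries cannot go below 0.33, the value it gave. The fall was as large without either knockout library, with log2 fold changes of −2.42 without replicate 1 and −2.47 without replicate 3. The summed parvalbumin markers were lower in the same libraries by a far smaller amount, with 0 of 12 markers past the threshold and Lhx6 slightly higher, as given above, and their part in the fall was not tested. Counts are per gene, so exons inside and outside the deleted part were not measured apart.

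Fxr2 encodes the paralog FXR2P and is on chromosome 11 from 69632990 to 69653297. It measured 107 and 105 CPM in wild type replicates 2 and 3 and 117 and 120 CPM in knockout replicates 1 and 3. Both knockout libraries lay above both wild type libraries, but the exact 95% binomial intervals of wild type replicate 2 (101 to 114 CPM) and knockout replicate 1 (111 to 124 CPM) overlapped. The fold was 1.12 with a 95% interval of 0.999 to 1.25 (log2 fold change 0.16, SE 0.08). It did not pass, with an unadjusted p of 0.0523 and an adjusted p of 0.998 by edgeR. The interval holds both no difference and a rise of up to 1.25 times.

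Fmr1 lies on chromosome X from 68678541 to 68717963. Its level was 112 and 113 CPM in wild type replicates 2 and 3, 109 CPM in knockout replicate 1 and 119 CPM in knockout replicate 3. The knockout libraries lay on either side of the wild type libraries. Its fold was 1.01 with a 95% interval of 0.903 to 1.14 (log2 fold change 0.02, SE 0.08; edgeR adjusted p = 0.998). Without knockout replicate 3 the log2 fold change was −0.03.

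Levels of different genes can be compared only per length, so CPM was divided by the kilobases covered by all annotated exons of a gene. On this scale of levels, the 3 family genes together reached 56.0 and 55.7 CPM per kb in wild type replicates 2 and 3, and 46.0 and 47.9 CPM per kb in knockout replicates 1 and 3. The sum was thus lower in both knockout libraries, at 84.0% of wild type (55.8 ± 0.195 against 46.9 ± 1.35 CPM per kb; SD, n = 2; exact permutation p = 0.33, the smallest possible). Fxr1 supplied 26.8% and 27.5% of the sum in wild type and 5.91% and 5.95% in knockout. Fxr2 supplied 50.9% and 49.8% in wild type and 67.6% and 66.4% in knockout. Such shares rise where another part of the sum falls, so they do not measure a rise of Fxr2 itself. They also depend on the length. Per coding length, the mean share of Fxr2 was 33.4% in wild type and 46.1% in knockout, below Fmr1 at 37.9% and 47.4%. On the scale of all exons, Fxr2 and Fmr1 added together stood at 40.7 ± 0.430 CPM per kb in wild type and 44.2 ± 1.26 CPM per kb in knockout (SD, n = 2). The difference was 3.49 (exact permutation p = 0.33), beside a difference of −12.4 for Fxr1. Fxr2 alone differed by 3.33 and Fmr1 by 0.159, and neither passed the edgeR test. The remaining share of the summed level depends on the length used: it was 81.0% per coding length and 76.3% per longest transcript, where the log2 ratio moved from −0.25 to −0.39.

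**Figure D1:**
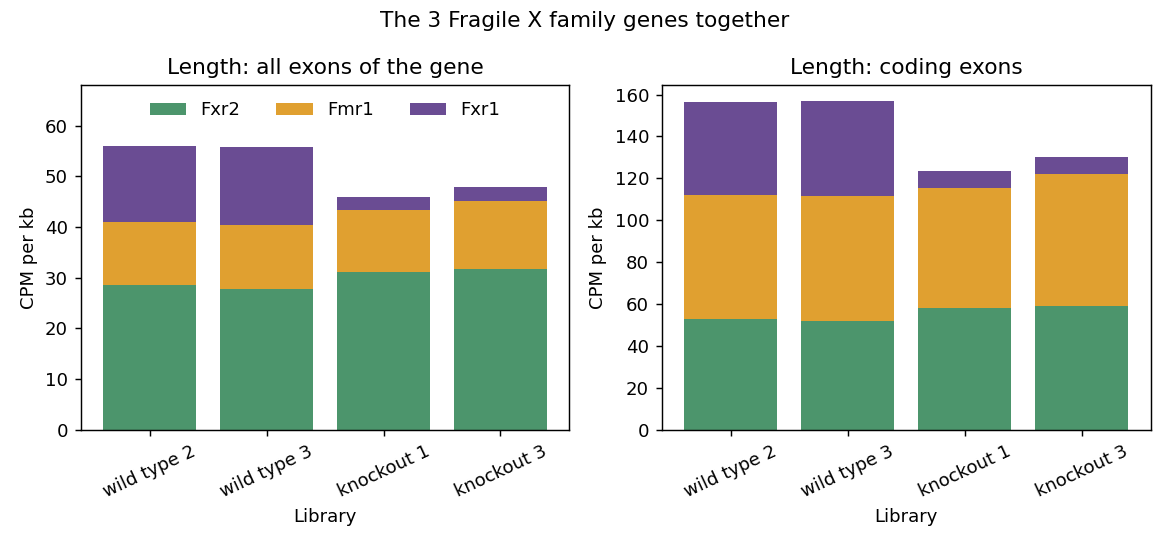
Stacked bars give the level of Fxr2, Fmr1 and Fxr1 in CPM per kb for each of the 4 libraries, per length of all exons on the left and per coding length on the right. The Fxr1 part shrinks in both knockout libraries, and on the left the whole bar goes from 56.0 and 55.7 to 46.0 and 47.9 CPM per kb.

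Cyfip1 and Cyfip2 encode the 2 CYFIP proteins and differed widely in level. Cyfip2, on chromosome 11 from 46193850 to 46312859, measured 1420 and 1382 CPM in wild type replicates 2 and 3 and 1408 and 1324 CPM in knockout replicates 1 and 3. Cyfip1, on chromosome 7 from 55841745 to 55932602, measured 29.9 and 32.3 CPM in the wild type libraries and 33.0 and 33.8 CPM in the knockout libraries. Among the 10 genes in wild type, Cyfip2 had the highest level per kb of exon and per kb of the longest transcript, whereas per kb of coding sequence G3bp2 was higher (438.0 against 365 CPM per kb). Cyfip1 was among the least abundant by each of the 3 lengths. Per kb of exon, Cyfip2 exceeded Cyfip1 by 79.8 and 71.9 times in wild type and by 71.6 and 65.8 times in knockout. Per coding length the wild type ratio was 46.0 ± 3.4 (SD, n = 2), so the size of the gap depends on the length taken. The lowest value over the 4 libraries and the 3 lengths was 37.9.

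Neither CYFIP gene passed the test. The fold of Cyfip1 was 1.07 with a 95% interval of 0.915 to 1.26, and both knockout libraries lay above both wild type libraries, though by less than counting error (the exact 95% intervals were 28.9 to 36.0 CPM in wild type replicate 3 and 29.6 to 36.8 CPM in knockout replicate 1). Nipa2, the neighbour on the opposite strand, held 118 and 173 counts in the wild type libraries, against 180 and 229 in knockout (log2 fold change 0.46, SE 0.16; edgeR adjusted p = 0.998). Its part in the value of Cyfip1 was not tested. Cyfip2 gave a fold of 0.976 with a 95% interval of 0.890 to 1.07, and its genotypes overlapped. The log2 ratio of Cyfip1 to Cyfip2 was 0.14 higher in knockout (exact permutation p = 0.33, 0.5 after adjustment over the 3 ratios compared). Its size rested on single libraries: with wild type replicate 2 left out it was 0.066, with knockout replicate 3 left out 0.081, and with wild type replicate 3 left out 0.22.

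Nufip1, whose product was found as a nuclear partner of FMRP and helps assemble box C/D small nucleolar RNPs, varied the most among the 9 genes other than Fxr1. It lies on chromosome 14 from 76110891 to 76137379. It measured 16.2 and 19.1 CPM in wild type replicates 2 and 3, 10.2 CPM in knockout replicate 1 and 17.2 CPM in knockout replicate 3. Knockout replicate 3 lay between the wild type libraries, and knockout replicate 1 alone was low, with an exact 95% interval of 8.36 to 12.4 CPM that did not reach those of the other libraries. The fold was 0.776 with a 95% interval of 0.575 to 1.05 (log2 fold change −0.37, SE 0.20; edgeR adjusted p = 0.998). The value rests on 1 library. Without knockout replicate 1 the log2 fold change was −0.05, and without knockout replicate 3 it was −0.77 and passed (adjusted p = 0.0162 by edgeR). Knockout replicate 1 is also the library with the high Rn45s, and the part of that in the low Nufip1 was not tested.

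Nufip2 encodes a second FMRP-binding protein, present in stress granules. It is on chromosome 11 from 77686155 to 77741921. Its level was 132 and 123 CPM in wild type replicates 2 and 3 and 123 and 138 CPM in knockout replicates 1 and 3. The genotypes overlapped, and the fold was 1.02 with a 95% interval of 0.911 to 1.15. In knockout replicate 1, where Nufip1 was low, Nufip2 lay within 1 CPM of wild type replicate 3.

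**Figure D2:**
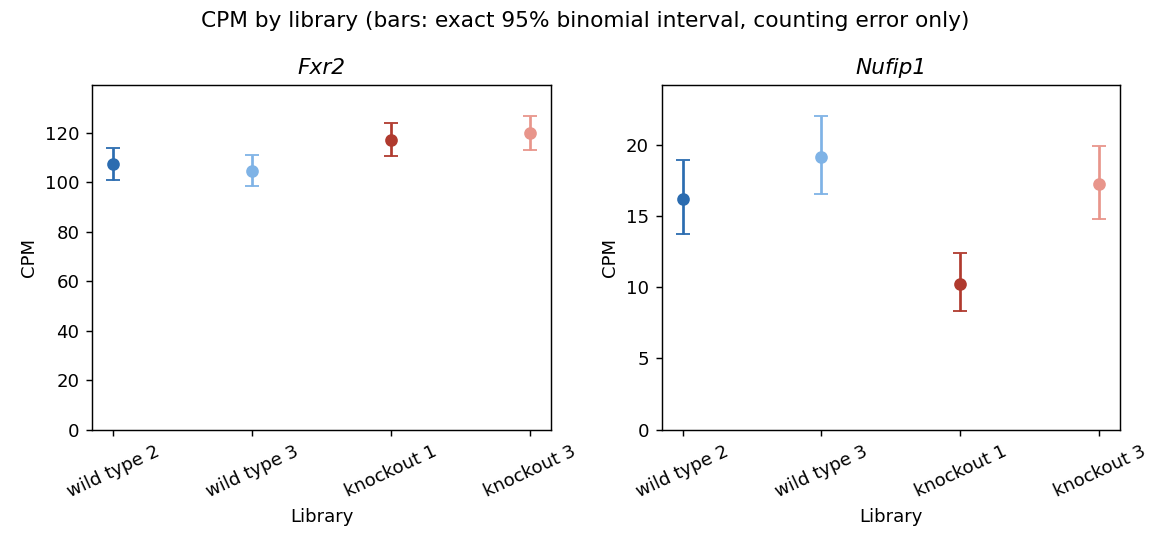
CPM of Fxr2 (left) and Nufip1 (right) in each library, with exact 95% binomial intervals that cover counting error only. Both knockout libraries are above wild type for Fxr2 (117 and 120 against 107 and 105 CPM), while for Nufip1 only knockout replicate 1, at 10.2 CPM, is set apart.

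Caprin1 encodes a granule protein that binds both FMRP and G3BP1, and lies on chromosome 2 from 103762941 to 103797649. It measured 380 and 454 CPM in wild type replicates 2 and 3 and 408 and 467 CPM in knockout replicates 1 and 3. Wild type replicate 2 and knockout replicate 1 were the low libraries and the replicates 3 the high ones, so the spread within each genotype was larger than the difference between them. The fold was 1.05 with a 95% interval of 0.922 to 1.19.

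G3bp1 and G3bp2 encode the core proteins of stress granules. G3bp2, on chromosome 5 from 92052146 to 92083719, measured 588 and 679 CPM in wild type replicates 2 and 3 and 585 and 652 CPM in knockout replicates 1 and 3. G3bp1, on chromosome 11 from 55469685 to 55504838, measured 54.6 and 59.9 CPM in the wild type libraries and 54.8 and 58.2 CPM in the knockout libraries. Both genes repeated the pattern of Caprin1, low in wild type replicate 2 and knockout replicate 1, and their genotypes overlapped. The fold was 0.976 with a 95% interval of 0.876 to 1.09 for G3bp2, and 0.987 with an interval of 0.861 to 1.13 for G3bp1. Per kb of exon, G3bp2 exceeded G3bp1 by 8.79 and 9.24 times in wild type and by 8.71 and 9.13 times in knockout, and by 17.5 ± 0.614 times in wild type per longest transcript (SD, n = 2). The size of this ratio is uncertain, because 42.3% of the G3bp1 windows and 20.8% of the G3bp2 windows also occur in other genes. The log2 ratio of G3bp1 to G3bp2 differed by 0.02 between genotypes (exact permutation p = 0.667, 0.667 after adjustment over the 3 ratios).

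In the fit across all genes, all 10 members passed the filter on low counts, and 1 of 10 passed an adjusted p of 0.05, namely Fxr1. Without knockout replicate 3 the count was 2, with Nufip1. Of all 12449 genes tested, 0.0321% passed (4 genes, and 9 to 48 without single libraries), and 0.0161% passed as lower in knockout. No member passed as higher, against 0.0161% of all genes. The same count of 1 was given by DESeq2 and by limma voom, and Fxr1 was also the only member with an unadjusted p under 0.05 by edgeR. Of the 9 other members, 5 had a log2 fold change above 0 and 4 below, with a median of 0.02 beside a median of −0.0015 over all genes tested. Without single libraries, Fxr2 stayed at log2 fold changes of 0.15 to 0.17 and Cyfip1 at 0.04 to 0.17. The sign turned for Fmr1, Cyfip2, Nufip2 and Caprin1 without knockout replicate 3, and for G3bp1 and G3bp2 without wild type replicate 3 or knockout replicate 1. It also turned for Nufip2 without wild type replicate 3 and for Caprin1 without wild type replicate 2. The genotypes did not overlap for 3 of 10 members (Fxr1, Fxr2 and Cyfip1), beside 30.2% of all genes tested, a share near that background. Apart from Fxr1 and Nufip1, the 95% intervals of the 8 remaining folds all lay between 0.861 and 1.26. Missing the threshold does not show that these genes were equal between genotypes.

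**Figure D3:**
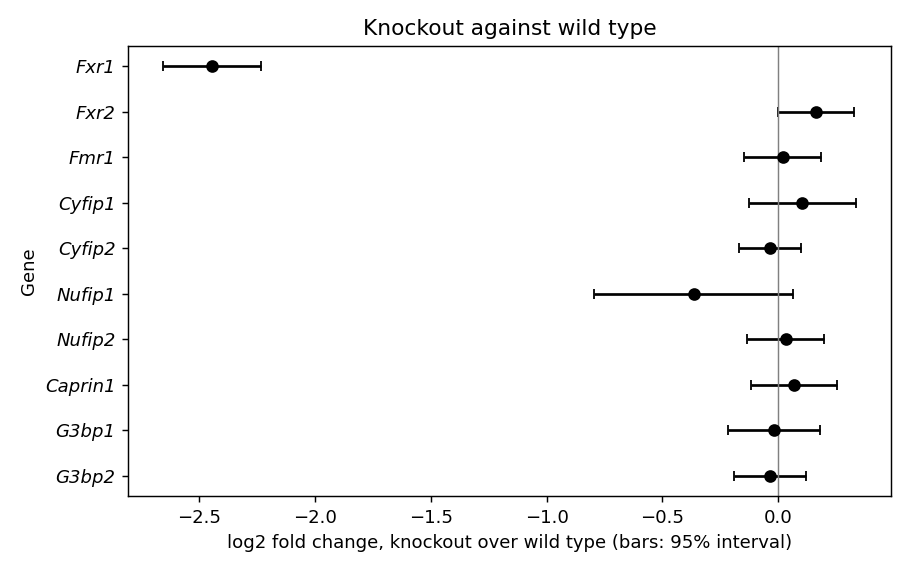
Points give the log2 fold change of knockout over wild type from edgeR for the 10 genes, and bars its 95% interval. Fxr1 stands at −2.45, and the intervals of the other 9 genes hold 0, with the widest for Nufip1.

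The balance between Fmr1 and Fxr2 was the third ratio compared. Per kb of exon, Fxr2 exceeded Fmr1 by 2.28 and 2.20 times in wild type replicates 2 and 3 and by 2.56 and 2.40 times in knockout replicates 1 and 3. Both knockout ratios were higher, and the log2 ratio of Fmr1 to Fxr2 differed by −0.14 (exact permutation p = 0.33, 0.5 after adjustment over the 3 ratios, with 0.33 the smallest p that 2 against 2 libraries allow). Which of the paralogs was more abundant depended on the length: per coding length, Fmr1 exceeded Fxr2 in wild type, at a ratio of 1.13 ± 0.0276 (SD, n = 2).

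The 10 genes spanned a wide range of levels. In wild type, per kb of exon, the order from the highest was Cyfip2 (197 ± 3.82 CPM per kb; SD, n = 2), G3bp2 (73.1 ± 7.38), Caprin1 (40.8 ± 5.15), Fxr2 (28.1 ± 0.509), Nufip2 (22.0 ± 1.05), Fxr1 (15.2 ± 0.235), Fmr1 (12.5 ± 0.0782), G3bp1 (8.10 ± 0.534), Nufip1 (4.44 ± 0.522) and Cyfip1 (2.61 ± 0.143). No neighbours in this order overlapped between the 2 wild type libraries. Per coding length, Fmr1 and Nufip2 did, and per longest transcript Fmr1 and Nufip2, and Cyfip1 and Nufip1, did. Cyfip2, G3bp2 and Caprin1 took the first 3 places by each length, G3bp1 the eighth, and Nufip1 and Cyfip1 the last 2. The place of G3bp1 carries the uncertainty of its count given above. The order of Fxr2, Nufip2, Fxr1 and Fmr1 in between changed with the length. Among 11684 tested genes with an annotated length, wild type Cyfip2 lay at the 99.2th percentile and wild type Fxr1 at the 77.9th. In knockout, Fxr1 lay at the 34.7th percentile, next to Cyfip1 at the 34.9th.

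**Figure D4:**
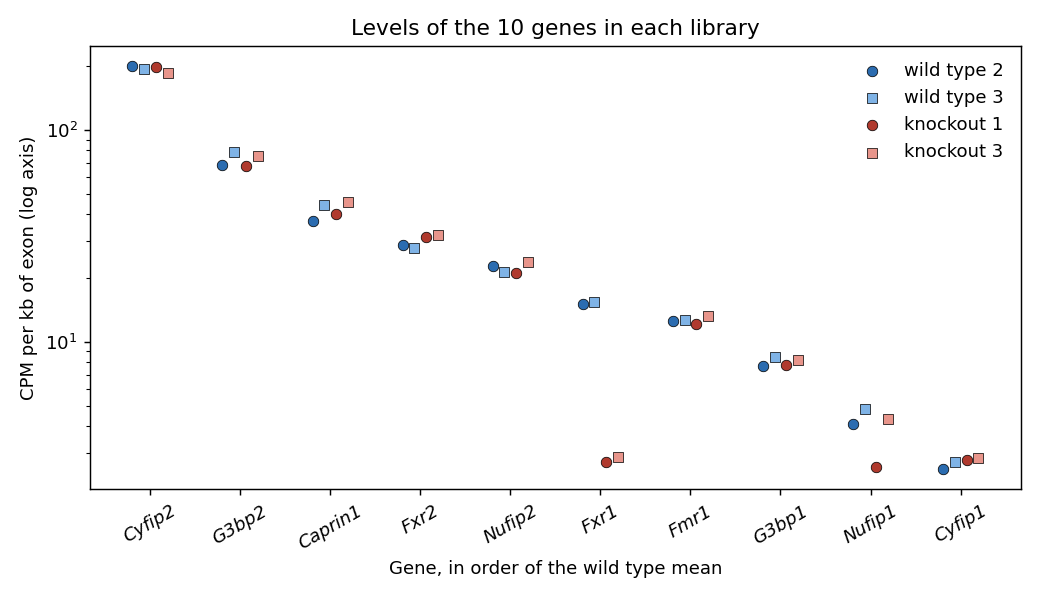
Levels of the 10 genes in CPM per kb of exon (log axis) in the 4 libraries, ordered by the wild type mean. Cyfip2 is highest at 197 ± 3.82 CPM per kb in wild type, and Fxr1 drops in both knockout libraries to the level of Cyfip1.

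Genes that work with these proteins were examined in 5 further lists. The WAVE complex holds the CYFIP proteins: 0 of 10 genes tested passed, 5 were higher and 5 lower, and the median log2 fold change was −0.02. Wasf2, which encodes a WAVE subunit, measured 6.29 and 5.14 CPM in the wild type libraries and 5.11 and 3.01 CPM in the knockout libraries. Abi1, an adaptor of the same complex, measured 42.3 and 44.7 CPM in the wild type libraries and 46.1 and 52.4 CPM in the knockout libraries. These were the list's smallest unadjusted p values, and neither passed (edgeR adjusted p = 0.998 for both).

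Among RNA granule proteins, 0 of 25 passed, with 13 higher, 12 lower and a median of 0.0015. Pura, which encodes a protein of dendritic RNA transport granules, measured 147 and 143 CPM in the wild type libraries and 135 and 130 CPM in the knockout libraries (edgeR adjusted p = 0.998).

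RISC proteins act in microRNA silencing, to which FMRP has been linked, and 0 of 9 passed, with 4 higher, 5 lower and a median of −0.04. Dicer1, the enzyme that cuts microRNA precursors, measured 92.6 and 89.1 CPM in the wild type libraries and 75.4 and 73.0 CPM in the knockout libraries (log2 fold change −0.29, SE 0.09; edgeR adjusted p = 0.933). Ago1, listed as Eif2c1 in the table, measured 81.1 and 91.0 CPM in the wild type libraries and 93.1 and 91.9 CPM in the knockout libraries. A further list held core proteins and assembly factors of box C/D small nucleolar RNPs, which NUFIP1 helps assemble. Of these, 0 of 10 passed, with 4 higher, 6 lower and a median of −0.03. Znhit3, one of the assembly factors, was 14.2 and 14.3 CPM in the wild type libraries and 11.1 and 10.5 CPM in the knockout libraries (log2 fold change −0.40, SE 0.16; edgeR adjusted p = 0.998). Ruvbl2, an ATPase, had a log2 fold change of 0.16.

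Among transcripts known as FMRP targets, 0 of 19 passed, with 11 higher, 8 lower and a median of 0.0025. Bsn, which encodes the active zone protein Bassoon, measured 1147 and 1098 CPM in wild type, 1397 CPM in knockout replicate 1 and 1145 CPM in knockout replicate 3. Shank3, a postsynaptic scaffold gene, measured 133 and 123 CPM in the wild type libraries and 134 and 153 CPM in the knockout libraries. Over the 5 lists, 0 genes passed, beside 0.0321% of all genes tested. By edgeR, 3 genes had an unadjusted p under 0.05, Dicer1 and Znhit3 among them, and 0 genes passed by DESeq2 or by limma voom. Without knockout replicate 3, 2 genes passed by edgeR, Bsn (higher) among them.

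**Figure D5:**
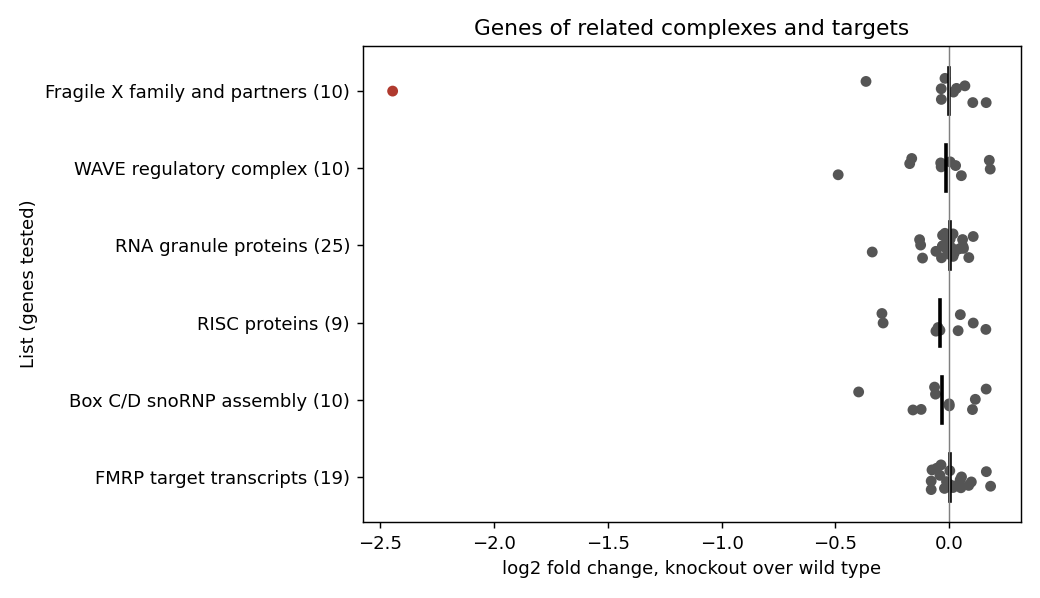
Each point is the log2 fold change of 1 gene of a list, knockout over wild type, and black bars mark the median of the list. Fxr1 is the only point past the threshold (red), and the medians of the 5 other lists lie between −0.04 and 0.0025.

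The pattern of Fxr1 over the 4 libraries was compared with that of 8423 other tested genes of at least 10 CPM, by the Euclidean distance between log2 CPM values centred on each gene's mean. The nearest were the pseudogene Tmem181b-ps (distance 1.66), Cacna1h, a T-type calcium channel gene (1.73), and Akr1c18, a steroid-metabolising enzyme gene (1.87), while a flat pattern lies at 2.45. Cacna1h measured 22.8 and 23.9 CPM in the wild type libraries and 14.3 and 14.1 CPM in the knockout libraries. The log2 fold changes of the 3 were −0.79, −0.72 and −0.64, and with 4 libraries the measure describes these libraries alone.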

How the data were processed

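The values the authors deposited are raw counts for each gene symbol, with no normalization. Alignment was to mm10 with STAR, per the submitters' processing notes. The labels' protocols name RNA from the RiboTag pull-down and a stranded total RNA kit. No source used here gives the counting tool, strand setting or filters. Columns were used where their name matched the title of 1 sample (4), and 2 columns that share 1 title were not used. No pair of libraries agreed within sampling noise (chi-square per degree of freedom 2.90 to 6.0). The libraries did not group by genotype: the closest pair was wild type replicate 3 with knockout replicate 3 (2.90). The 2 wild type libraries gave 3.52, and the 2 knockout libraries were the least alike (6.00).

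The test was the robust quasi-likelihood fit of edgeR 4.0.16 in R 4.3.3, with TMM, filterByExpr and Benjamini-Hochberg adjustment over 12449 genes at a threshold of 0.05. Intervals are 95%. CPM uses library totals of 9696126 to 10301280 counts. Gene lengths and coordinates are from GENCODE M21, and alignments were made with Biopython 1.88. The fit was tested on simulated data. Alternatives were DESeq2 1.42.0, limma 3.58.1 voom, other scalings, filters and lengths, and leaving out each library. In the lists, 8 symbols were matched through older symbols in the RefSeq gene table, and 1 gene was not analysed here. Named genes are the members, and for each further list those past the threshold or the 2 with the smallest p. One gene so chosen is not reported here. The members and lists were chosen with earlier results of these data known.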

Additional observations from a re-analysis of the deposited data

How the results depend on the processing

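Fxr1 passed under each of the 11 settings run for single genes, at log2 fold changes of −2.47 to −2.42. Of 99 values for the 9 other genes, 88 kept their direction and stayed short of the threshold, and Nufip1 passed without knockout replicate 3. Log2 fold changes without single libraries ran from −0.030 to 0.066 for Fmr1, −0.094 to 0.021 for Cyfip2, −0.041 to 0.10 for Nufip2, −0.059 to 0.21 for Caprin1, −0.089 to 0.061 for G3bp1 and −0.14 to 0.083 for G3bp2. The direction turned for Fmr1, Cyfip2, Nufip2 and Caprin1 (−0.019) without knockout replicate 3, for Nufip2 (−0.0068), G3bp1 and G3bp2 without wild type replicate 3, for Caprin1 without wild type replicate 2, and for G3bp1 (0.012) and G3bp2 (0.029) without knockout replicate 1. Leaving out single libraries gave 1 to 2 members, 0 to 2 genes of the further lists and 9 to 48 of all genes past the threshold. In those fits the lone library of a genotype is taken to vary as the other genotype does. The 4 genes past the threshold over all became 1 with library totals, 2 by DESeq2 and 13 with no filter. The log2 ratio of the family sum, −0.25, was −0.30 per coding length, −0.39 per longest transcript and −0.28 to −0.22 without single libraries. The log2 ratio of Cyfip1 to Cyfip2 ran from 0.066 to 0.22 without single libraries. The log2 ratio of G3bp1 to G3bp2 ran from −0.021 (without wild type replicate 3) to 0.051, and was −0.019 without knockout replicate 1. No paired analysis was possible because accession order gave the replicate numbers, of which the genotypes share 1. The cause of these shifts was not tested. Nufip1, with counts of 104 to 197, had an SE of 0.20 for its log2 fold change. Its level was 10.2 CPM in knockout replicate 1 and 17.2 CPM in knockout replicate 3. How far low counts or the spread between libraries set the width of its interval was not tested.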
